A study of Mus musculus with 96 samples.

Results

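The regions bound by GATA6 around 4 genes of the pluripotency network, Pou5f1, Sox2, Nanog and Esrrb, were followed over time for 5 transcription factors. They were all regions of the deposited table whose GATA6 summit, the base with the highest GATA6 signal, lay in fixed mm10 windows around these genes, which gave 57 of 42403 regions, with 11 at Pou5f1, 11 at Sox2, 22 at Nanog and 13 at Esrrb. The factors were measured by chromatin immunoprecipitation and sequencing (ChIP-seq), which reads the DNA fixed to a protein after pulling that protein down. Cells were KH2 mouse embryonic stem (ES) cells of a C57BL/6 x 129/Sv background with a doxycycline (Dox)-inducible Gata6 transgene, kept in serum and LIF on fibroblast feeders, so the ES cells before Dox carried the transgene as well. GATA6, SOX17, OCT4, SOX2, ESRRB and input chromatin were profiled before induction and at 5 times of Dox treatment (8 h, 16 h and days 1, 2 and 4). Extra-embryonic endoderm (XEN) cells, the CD1 line X10 derived from the primitive endoderm (PrE) lineage, were profiled untreated for every factor other than ESRRB. GATA6 and SOX17 were also profiled at day 2 in Dox-treated ES cells that had received control siRNA (siCTL) or Oct4 siRNA (siOCT4). The knock-down cells came from 1 clone of the transgenic line.

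Pou5f1 encodes OCT4, which binds DNA together with SOX2 at composite OCT:SOX motifs and is required for the pluripotent state. NANOG and ESRRB, the latter an orphan nuclear receptor, reinforce the same network, and the 4 genes carry enhancers at which their own products bind. GATA6 is the transcription factor that drives the separation of PrE from the epiblast in the early embryo. SOX17 is an endoderm factor that is switched on downstream of GATA6. Binding of GATA6 to these genes is therefore binding of the factor of one lineage at the regulators of the other.

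Values are library-scaled reads (RPM) on each region, pooled by the authors over the libraries of a condition. The values of single libraries were recovered for 40 of the 45 conditions from the size of the steps between low values, which gave 76 libraries with depths of 5.42 to 69.4 M reads. In 5 conditions, OCT4, SOX2, ESRRB, SOX17 and input before induction, the steps could not be assigned to libraries and only the pooled value is given. These columns showed 4 to 6 steps where 2 or 3 libraries are labelled, so which libraries they average is not known. Changes from before induction in these factors rest on such values. A count of regions that "rose" or "fell" refers to a change of at least 2-fold in pooled RPM after adding a pseudocount of 0.164 to 0.195 RPM, without a test, and the share of all 42403 regions past the same threshold is given beside it. Where both conditions had 2 libraries, edgeR's quasi-likelihood test was run on the recovered reads of all regions, with TMM normalization and Benjamini-Hochberg adjustment. Its p-values measure the spread between 2 libraries per condition.

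The regions at the 4 loci were wider than most and more often accessible before induction, although most were not in the accessible class. Their median width was 831 bp against 524 bp for all regions. By the authors' classes, 18 of 57 (31.6%) were accessible in undifferentiated ES cells against 7.43% of all regions. The others were moderate (27, 47.4% against 31.2%) or closed (12, 21.1% against 61.3%). Before induction, 31 (54.4%) were bound by OCT4, SOX2 or ESRRB, the pluripotency transcription factors (PTFs), against 20.8%. Active enhancer chromatin was assigned to 20 regions (35.1% against 11.2%) and promoter chromatin to 17 (29.8% against 6.88%). In the authors' classes of GATA6 dynamics, 34 regions were Transient, 21 Early&Constant and 2 Late. Late regions made up 33.6% of the whole table. Regions are assigned to a locus by position only, and the gene of the locus had the nearest protein-coding start at 34 of the 57. All 13 Esrrb regions lay in introns of Esrrb and all 11 Sox2 regions were intergenic, whereas 11 of the Nanog regions, between +35.2 and +78.8 kb, lay within Slc2a3, a glucose transporter gene.

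Regions are named here by the distance of the summit from the start of the gene, negative upstream. Sequences of 151 bases around the summit (at the Nanog promoter beside it, ending before the gene start) are printed from the RefSeq copy of GRCm38.p6, the assembly that mm10 names, 5′ to 3′ on the forward strand, with the authors' best motif matches in capitals. The first set holds regions at which GATA6 fell from 8 h to day 4 and whose best OCT:SOX match lay in the window. Pou5f1 -2.0 kb is chr17:35503984-35504134, upstream of Pou5f1, with an OCT:SOX match of score 13.6 and a GATA6 match of score 8.8. Sox2 -4.0 kb is chr3:34646283-34646433, intergenic, with OCT:SOX at 12.2 and ESRRB at 6.8. Nanog +0.0 kb is chr6:122707338-122707488, the promoter of Nanog up to the base before its start, with OCT:SOX at 17.7 and GATA6 at 7.0. Esrrb +109.9 kb is chr12:86470985-86471135 and Esrrb +137.9 kb is chr12:86498912-86499062, both in introns of Esrrb, with OCT:SOX at 13.9 and 16.0. Of these, Esrrb +109.9 kb lay 0.9 kb from an alternative start of Esrrb.
Pou5f1 -2.0 kb: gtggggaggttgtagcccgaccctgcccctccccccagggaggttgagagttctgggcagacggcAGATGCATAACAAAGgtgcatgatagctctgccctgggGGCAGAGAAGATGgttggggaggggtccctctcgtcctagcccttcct
Sox2 -4.0 kb: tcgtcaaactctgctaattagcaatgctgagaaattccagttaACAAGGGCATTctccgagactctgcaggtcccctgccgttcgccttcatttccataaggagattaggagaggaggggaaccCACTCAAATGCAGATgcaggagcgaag
Nanog +0.0 kb: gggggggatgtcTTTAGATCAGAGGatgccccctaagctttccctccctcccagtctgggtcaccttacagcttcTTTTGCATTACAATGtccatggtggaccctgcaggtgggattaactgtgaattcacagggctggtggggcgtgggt
Esrrb +109.9 kb: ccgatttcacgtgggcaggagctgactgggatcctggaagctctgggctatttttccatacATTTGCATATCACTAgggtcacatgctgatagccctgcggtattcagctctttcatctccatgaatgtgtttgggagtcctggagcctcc
Esrrb +137.9 kb: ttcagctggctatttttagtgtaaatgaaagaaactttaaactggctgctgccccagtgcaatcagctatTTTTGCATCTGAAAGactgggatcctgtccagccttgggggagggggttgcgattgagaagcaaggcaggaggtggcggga

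The second set holds regions whose window had a GATA6 match in capitals and no OCT:SOX one. Nanog +65.5 kb is chr6:122772963-122773113 and Nanog +69.9 kb is chr6:122777271-122777421, both in introns of Slc2a3, with scores of 12.6 and 14.2. Esrrb +119.7 kb is chr12:86480708-86480858, intronic in Esrrb, with a score of 14.2, and Sox2 +70.7 kb is chr3:34721047-34721197, intergenic, with a score of 11.4. Of these, 2 gained GATA6 between 8 h and day 4 (Nanog +65.5 kb and Sox2 +70.7 kb), Esrrb +119.7 kb kept most of it and at Nanog +69.9 kb it fell, as described below.
Nanog +65.5 kb: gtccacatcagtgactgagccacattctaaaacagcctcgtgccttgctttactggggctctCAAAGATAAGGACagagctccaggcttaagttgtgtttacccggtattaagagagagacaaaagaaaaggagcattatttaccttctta
Sox2 +70.7 kb: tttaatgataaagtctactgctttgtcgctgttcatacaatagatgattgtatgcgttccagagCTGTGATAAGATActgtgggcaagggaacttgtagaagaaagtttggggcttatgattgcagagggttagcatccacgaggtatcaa
Esrrb +119.7 kb: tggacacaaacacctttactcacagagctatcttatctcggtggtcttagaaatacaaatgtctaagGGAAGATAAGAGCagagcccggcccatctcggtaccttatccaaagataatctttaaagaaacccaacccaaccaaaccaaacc
Nanog +69.9 kb: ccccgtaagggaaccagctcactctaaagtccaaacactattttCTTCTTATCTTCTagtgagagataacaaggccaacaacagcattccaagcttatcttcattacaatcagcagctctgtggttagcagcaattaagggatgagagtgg

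GATA6 was bound at most of these regions within 8 h. Summed over the regions of a locus, GATA6 went from 11.8 to 62.7 RPM at Pou5f1, from 10.0 to 69.1 at Sox2, from 24.3 to 148.3 at Nanog and from 15.7 to 93.1 at Esrrb. GATA6 rose at 49 of 57 regions (60.4% of all regions), among them all 13 at Esrrb, 10 of 11 at Pou5f1, 10 of 11 at Sox2 and 16 of 22 at Nanog. The median change was 2.23 on the log2 scale, against 1.38 for all regions. Relative to that general shift, 24 regions passed the threshold. GATA6 before induction was a single library, so no test was run for this step.

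**Figure D1:**
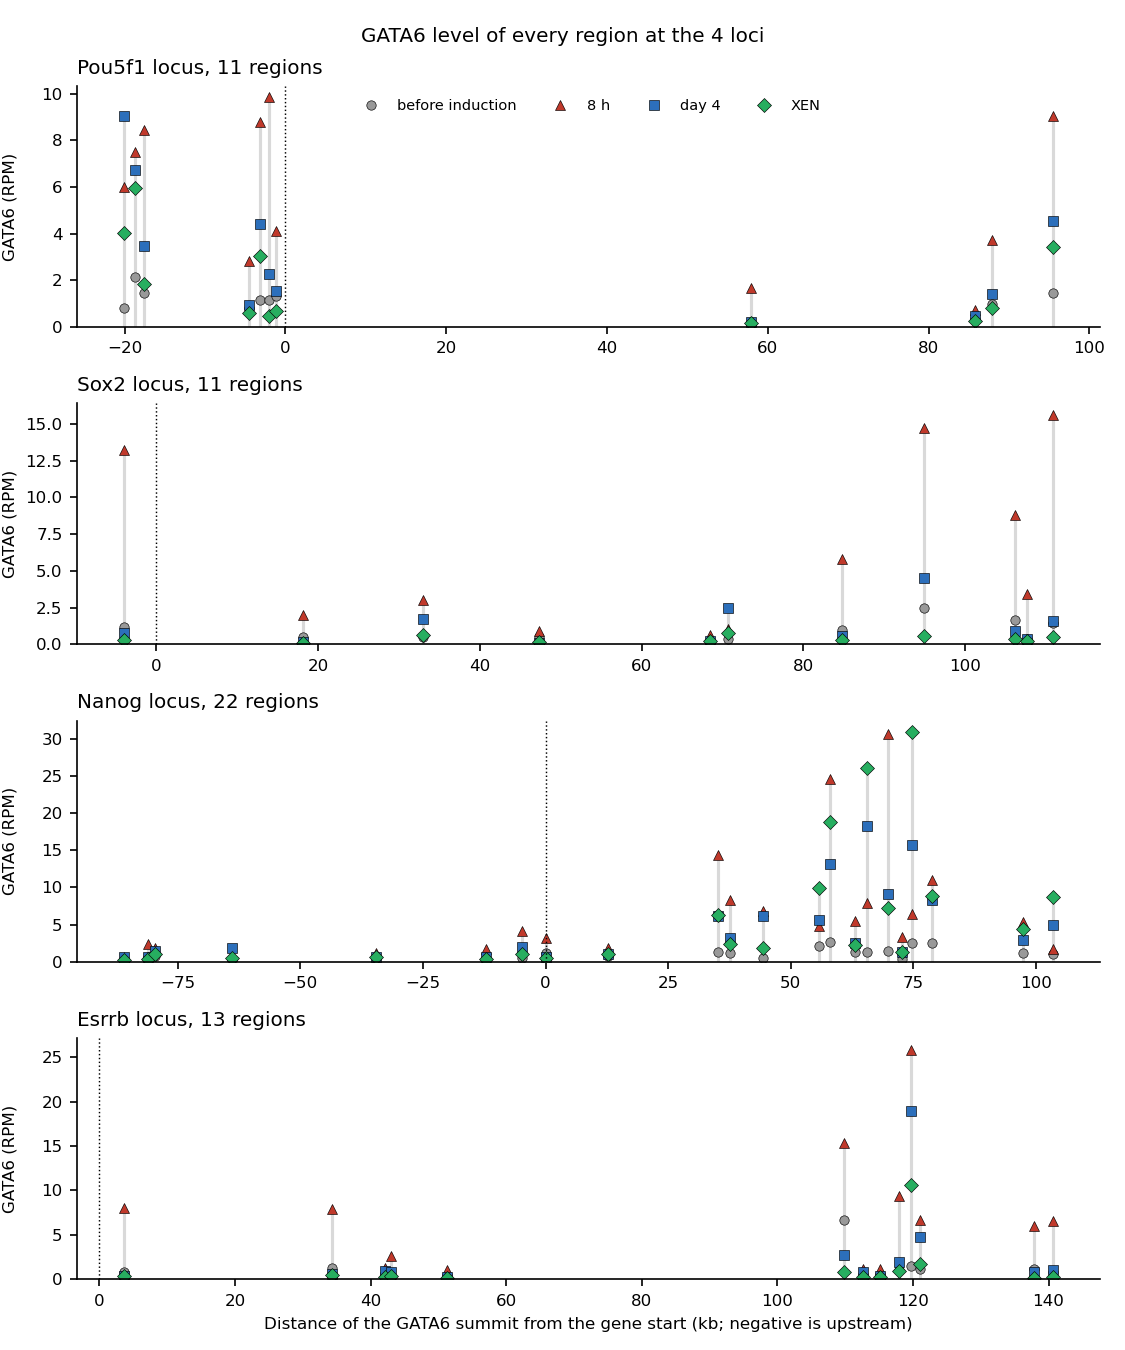
GATA6 level (RPM, pooled by condition) of all 57 regions against the distance of their summit from the gene start in kb, before induction, at 8 h, at day 4 and in XEN cells. At the Sox2 locus the day 4 squares lie below the 8 h triangles at all regions other than +70.7 kb, whereas at Nanog the +65.5 and +74.8 kb regions are higher at day 4 and in XEN cells than at 8 h.

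After the first hours the loci parted. GATA6 was highest at 8 h at 27 regions (32.8% of all regions), at 16 h at 19 (17.7%) and at day 4 at only 5 (37.2%). From 8 h to day 4 it fell at 32 of 57 regions (34.8% of all regions) and rose at 5 (30.9%), with a median change of -1.20 against -0.02 for all regions. The loss was steepest at Sox2, where the median change was -2.63 and GATA6 fell at 8 of 11 regions, followed by Esrrb (-1.49, 9 of 13), Pou5f1 (-1.23, 6 of 11) and Nanog (-0.77, 9 of 22). Differences between the loci were not tested. In edgeR's test, 37 of 57 regions were lower at day 4 (39.1% of all regions) and 6 were higher (41.8%), at an adjusted p under 0.05. In bulk samples, fewer cells bound by a factor and less of it per cell cannot be told apart. The input level of the same regions also fell, from a median of 0.994 RPM before induction to 0.594 at day 4 (0.448 and 0.452 for all regions), and after subtracting input GATA6 fell at 39 regions.

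**Figure D2:**
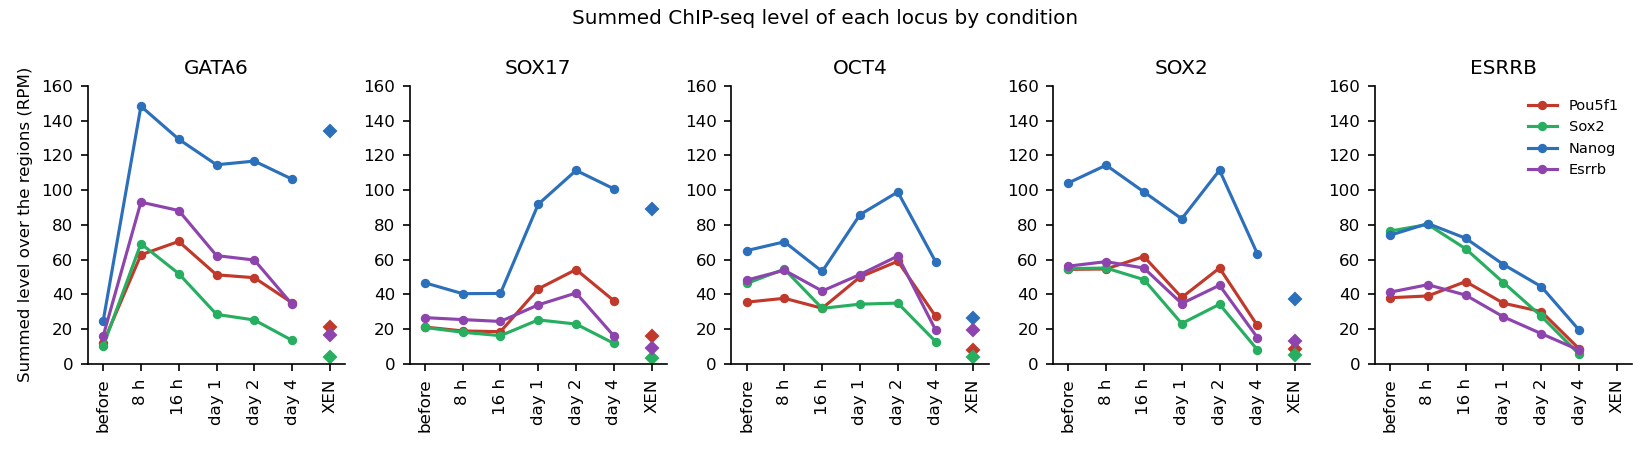
RPM summed over the regions of each locus, by factor, from before induction to day 4 and in XEN cells (pooled values, ESRRB not profiled in XEN cells). GATA6 at Nanog ends at 106.3 RPM at day 4 and 134.3 in XEN cells, while at Sox2 it ends at 13.4 and 3.9.

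At the Sox2 locus, the region upstream of the gene and a group of far downstream regions bound GATA6 at 8 h and had less of it at day 4. Sox2 -4.0 kb had 13.7 and 12.7 RPM in the libraries at 8 h, 4.67 and 2.07 at day 1, and 0.72 and 0.85 at day 4. Sox2 +110.9 kb, the strongest region of the locus at 8 h, had 16.6 and 14.6 RPM at 8 h and 0.83 and 2.38 at day 4. At both, the libraries at day 4 lay below those at 8 h without overlap, with log2 changes of -3.92 (SE 0.28) and -3.24 (SE 0.27) and adjusted p of 2.2e-13 and 9.07e-12 (edgeR, Benjamini-Hochberg). Between them, Sox2 +94.9 kb went from 15.5 and 14.0 to 3.10 and 5.86 RPM and had the highest GATA6 of the locus at day 4. The authors' classes list Sox2 -4.0 kb and Sox2 +94.9 kb as Early&Constant. Sox2 +70.7 kb went against the rest of the locus and was the only region of it called higher at day 4 than at 8 h (1.49, SE 0.31, adjusted p = 5.94e-05). It had 0.95 and 1.13 RPM at 8 h, 3.78 and 10.5 at 16 h, 6.67 and 4.13 at day 1 and 2.44 and 2.55 at day 4, and the libraries at 16 h differed from each other by more than 2-fold. In XEN cells no Sox2 region passed 1 RPM.

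At the Pou5f1 locus GATA6 fell at the regions nearest to the gene, while it did not at 2 of the 3 regions of an upstream cluster. Pou5f1 -2.0 kb had 9.82 and 9.86 RPM at 8 h, 9.74 and 12.2 at 16 h, 5.75 and 7.20 at day 2 and 1.497 and 3.06 at day 4. Pou5f1 -1.2 kb, the region nearest the start, was weaker, at 4.23 and 4.01 RPM at 8 h and 1.11 and 1.95 at day 4. Both were lower at day 4 than at 8 h in every library, by -2.02 (SE 0.25, adjusted p = 2.72e-08) and -1.33 (SE 0.29, adjusted p = 1.18e-04) on the log2 scale in edgeR's test with Benjamini-Hochberg adjustment. Pou5f1 -20.1 kb, which lies nearer to the start of H2-Q10 (15.9 kb) than to that of Pou5f1, held 6.71 and 5.32 RPM at 8 h, against 6.93 and 11.2 at day 4. It was the only region of the locus called higher by edgeR (0.69, SE 0.22, adjusted p = 4.73e-03), and it was under 2-fold. The call was lost without the second library at 8 h (adjusted p = 0.206) or at day 4 (0.362), with library totals (0.0503) and with DESeq2 (0.0795). Its neighbors differed, since Pou5f1 -18.7 kb had 7.71 and 7.33 RPM at 8 h and 5.32 and 8.15 at day 4, whereas Pou5f1 -17.6 kb went from 9.26 and 7.59 to 2.11 and 4.84. Pou5f1 -3.1 kb, close to the gene, was just under the 2-fold threshold (9.16 and 8.38 against 2.88 and 5.94 RPM, -0.96 in pooled values). These 3 regions were named after their values were seen. Farther downstream, Pou5f1 +95.5 kb next to Sfta2 had 9.23 and 8.90 RPM at 8 h and 3.05 and 6.03 at day 4.

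At the Nanog locus GATA6 fell at the promoter and at several far downstream regions, and rose at 4 others, 3 of them downstream. Nanog +0.0 kb, at the start itself, had 3.24 and 3.23 RPM of GATA6 at 8 h and 0.39 and 0.76 at day 4, a log2 change of -2.40 (SE 0.36, adjusted p = 5.31e-07, edgeR, Benjamini-Hochberg). Nanog +65.5 kb, in an intron of Slc2a3, had 8.34 and 7.59 RPM at 8 h, 11.2 and 11.4 at day 2, 16.8 and 19.6 at day 4 and 27.4 and 24.7 in XEN cells. Its change from 8 h to day 4 was 1.34 (SE 0.19, adjusted p = 1.43e-07), with both day 4 libraries above both at 8 h. The same direction was seen at Nanog +74.8 kb, a region named after its values were seen, with 5.33 and 7.59 RPM at 8 h, 14.9 and 16.6 at day 4 and 34.4 and 27.4 in XEN cells (1.49, SE 0.21, adjusted p = 1.34e-07). Not every intronic region of Slc2a3 gained GATA6. Nanog +69.9 kb was the strongest region of all 4 loci at 8 h, with 32.3 and 28.9 RPM (rank 122 of 42403), and had 8.59 and 9.51 at day 4, a log2 change of -1.60 (SE 0.18, adjusted p = 1.84e-09). Nanog +57.9 kb went from 25.5 and 23.7 to 12.1 and 14.3 RPM, and had 19.8 and 17.7 in XEN cells. Within Slc2a3, regions that gained GATA6 thus stood beside others that fell. The 2 of the 57 regions classed as Late, Nanog -64.0 kb and Nanog +103.5 kb, are also in this window, and the former stayed low, at 0.52 to 3.83 RPM from 8 h to day 4.

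At the Esrrb locus all 13 regions were lower at day 4 than at 8 h, although one of them stayed strong. Esrrb +119.7 kb had 27.8 and 23.9 RPM at 8 h, 25.0 and 20.3 at day 2, 15.3 and 22.6 at day 4 and 9.39 and 11.8 in XEN cells. Both libraries at day 4 lay below both at 8 h, with a pooled log2 change of -0.45, and the change was not called by edgeR. Esrrb +109.9 kb had 15.9 and 14.7 RPM at 8 h, 16.6 and 19.7 at 16 h and 11.9 and 10.8 at day 2. At day 4 its libraries disagreed, at 0.61 and 4.84 RPM, both below every earlier library (log2 change -2.51, SE 0.35, adjusted p = 1.29e-07, edgeR, Benjamini-Hochberg). In the first part of the gene, Esrrb +3.6 kb had 8.61 and 7.51 RPM at 8 h but 0.17 and 0.42 at day 4, and Esrrb +34.3 kb had 9.25 and 6.46 against 0.44 and 0.68. Those were the largest falls of the locus, at -4.72 (SE 0.37) and -3.72 (SE 0.33), and they were named after their values were seen.

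**Figure D3:**
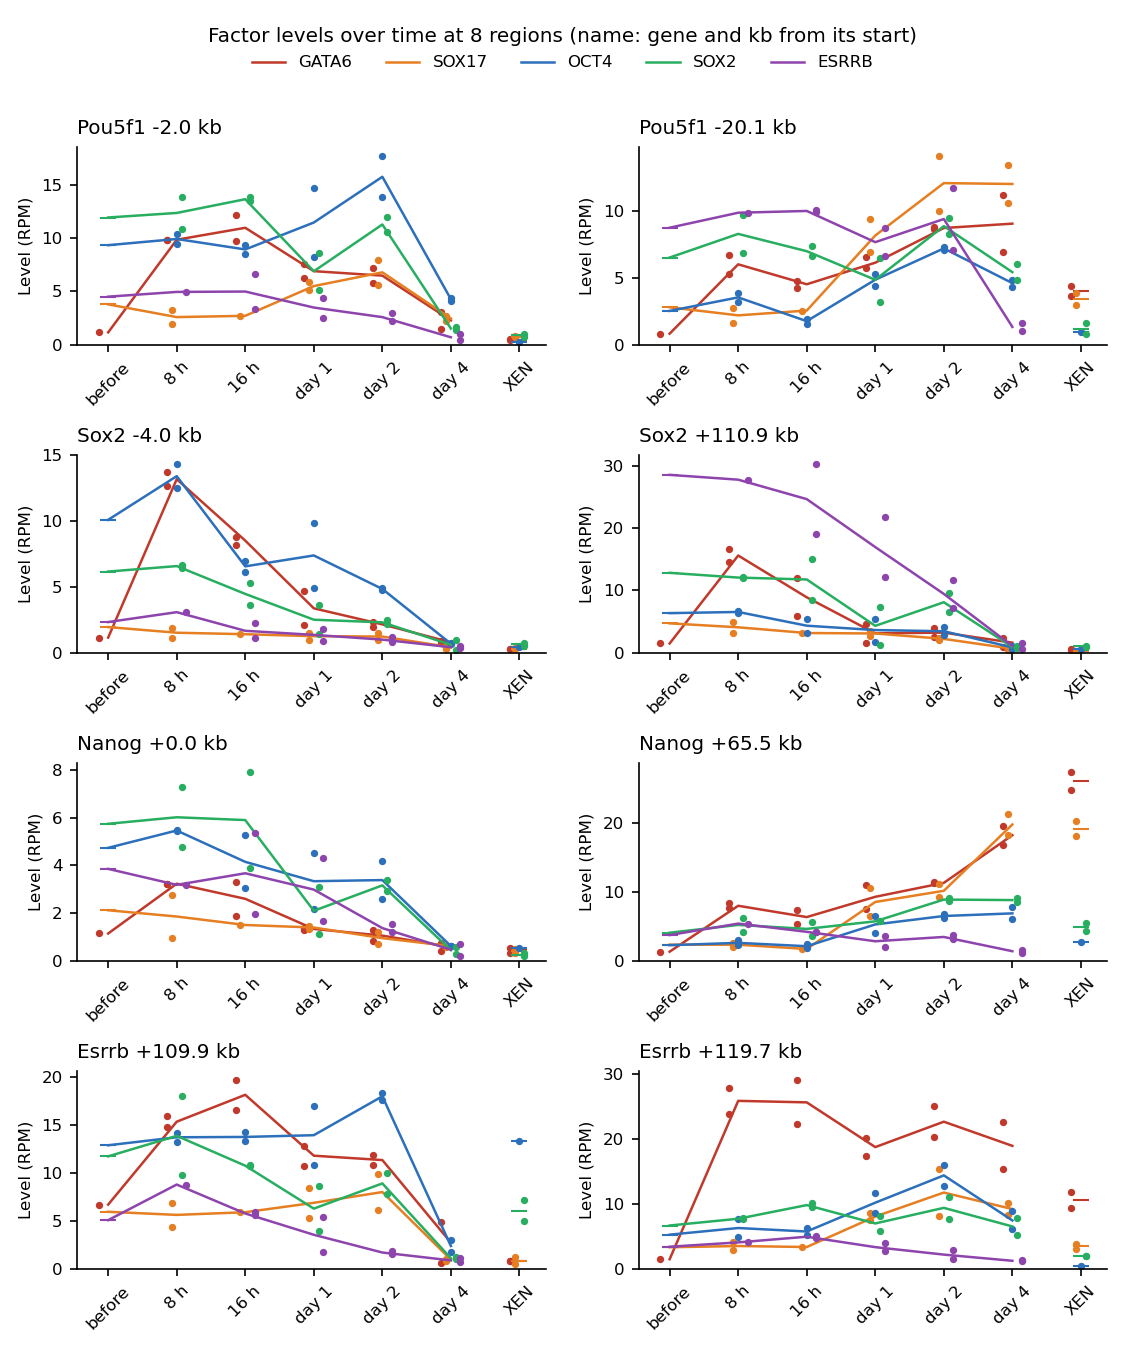
Level (RPM) of GATA6, SOX17, OCT4, SOX2 and ESRRB at 8 of the regions over time and in XEN cells. Lines join pooled values, points are single recovered libraries, and dashes mark pooled values before induction and in XEN cells. At Sox2 -4.0 kb the GATA6 peak at 8 h coincides with 14.3 and 12.5 RPM of OCT4, and at Nanog +65.5 kb GATA6 and SOX17 climb together to day 4.

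The PTFs were near their starting level at 8 h, when GATA6 was already bound. OCT4 rose at 0 of 57 regions from before induction to 8 h (0.0283% of all regions, that is 12 regions), by pooled values without a test, and its median change was 0.09. At Sox2 -4.0 kb OCT4 was at 10.1 RPM before induction and at 14.3 and 12.5 in the libraries at 8 h. At Esrrb +109.9 kb it was at 12.9 and then at 14.2 and 13.2. SOX2 and ESRRB also changed 2-fold at none of the 57 regions by 8 h. Such changes were rare over all regions too. For SOX2, 0.00236% were higher and 0.033% lower, and for ESRRB 0.351% and 1.14%. ESRRB at 8 h was recovered as 1 library.

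By day 2 OCT4 was higher at a subset of regions, a share not far from that of all regions. OCT4 rose at 11 of 57 regions from before induction to day 2 (19.3%, against 14.6% of all regions), with 5 at Nanog and 2 at each other locus. Esrrb +119.7 kb went from 5.25 RPM to 12.8 and 16.0 in the libraries at day 2, and Sox2 +70.7 kb from 1.54 to 5.43 and 6.58. Pou5f1 -2.0 kb, upstream of the gene of OCT4 itself, went from 9.33 RPM to 17.7 and 13.8, which was under 2-fold in the pooled value. OCT4 was highest at day 2 at 23 regions (17.4% of all regions) and at 8 h at 20 (24.4%).

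At day 4 ESRRB was 2-fold lower at most regions, and OCT4 and SOX2 at fewer. From before induction to day 4 OCT4 fell at 22 of 57 regions (19.4% of all regions), SOX2 at 28 (24.1%) and ESRRB at 38 (25.2%). The medians were -0.68, -0.85 and -1.31, against 0.16, 0.10 and -0.40 for all regions. As for GATA6, the Sox2 locus had the lowest medians, at -2.07, -2.49 and -2.23, and Nanog the mildest for OCT4 and SOX2, at -0.27 and -0.48. ESRRB had already fallen at 13 regions at day 2 (11.4% of all regions), 6 of them at Sox2. Sox2 +110.9 kb was rank 9 of 42403 for ESRRB before induction, at 28.6 RPM, and it had 30.3 and 19.1 in the libraries at 16 h, 7.21 and 11.7 at day 2 and 0.62 and 1.49 at day 4. Sox2 -4.0 kb had only 0.73 and 0.63 RPM of OCT4 left at day 4.

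The same loss was seen between induced time points with replicate libraries. By pooled values OCT4 fell at 24 of 57 regions from 8 h to day 4 (23.7% of all regions), SOX2 at 29 (27.6%) and ESRRB from 16 h to day 4 at 38 (31.6%). By edgeR with Benjamini-Hochberg adjustment, OCT4 was lower at 28 (29% of all regions) and higher at 7 (27.4%), SOX2 lower at 36 (33.1%) and higher at 3 (31.7%), and ESRRB lower at 20 (11.6%) and higher at 0 (3.26%). The ESRRB count depended on the scaling, since library totals in place of TMM gave 37 lower regions and a median shift of all regions of -0.79. Under TMM the regions called higher for SOX2 were Nanog +65.5 kb, Nanog +74.8 kb and Nanog +103.5 kb, which gained GATA6 too. OCT4 was called higher at these 3, at Nanog +44.3 kb and Nanog -64.0 kb, at Pou5f1 -18.7 kb and at Sox2 +70.7 kb. Leaving out 1 library ended the SOX2 call at Nanog +65.5 kb and the OCT4 calls at Nanog -64.0 kb, Nanog +74.8 kb and Pou5f1 -18.7 kb (adjusted p up to 0.0723, 0.274, 0.0532 and 0.213). At Nanog +65.5 kb SOX2 was at 4.18 and 6.20 RPM at 8 h, then at 9.03 and 8.56 at day 4, while at day 4 the Nanog promoter had 0.60 and 0.63 RPM of OCT4 and 0.29 and 0.60 of SOX2.

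At every region printed above for its OCT:SOX motif, pooled OCT4 and SOX2 were both lower at day 4 than at 8 h. The libraries of 3 of them are given here. At Pou5f1 -2.0 kb SOX2 went from 10.8 and 13.9 RPM in the libraries at 8 h to 1.38 and 1.64 at day 4 (log2 change -3.01, SE 0.24, adjusted p = 5.04e-17, edgeR, Benjamini-Hochberg), while OCT4 went from 9.49 and 10.3 to 4.40 and 4.12 (-1.26, SE 0.22, adjusted p = 1.05e-06). At Nanog +0.0 kb, whose day 4 values are given above, OCT4 started from 5.43 and 5.50 RPM and SOX2 from 4.77 and 7.28. At Esrrb +109.9 kb OCT4 was still at 18.4 and 17.6 RPM at day 2 and at 3.03 and 1.71 at day 4, and SOX2 went from 9.74 and 18 at 8 h to 1.22 and 0.97. In each case the groups at 8 h and day 4 did not overlap. Pou5f1 -20.1 kb still had ESRRB at day 2, with 10.1 and 9.95 RPM at 16 h, 7.10 and 11.7 at day 2 and 1.04 and 1.61 at day 4. Its best ESRRB match had a score of 16.9.

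SOX17 rose at some regions, most of them at the Nanog locus, and its signal fell 2-fold at others. No Pou5f1 region fell 2-fold from before induction to day 4, where the lowest log2 change was -0.878. The signal of the SOX17 antibody before induction is taken here as the background. It summed to 46.6 RPM at Nanog, 26.5 at Esrrb, 21.1 at Pou5f1 and 20.8 at Sox2. Its median at the 57 regions was 1.67 RPM, against 0.994 for input there and 0.545 for the same antibody over all regions. What this signal holds was not tested. Over the 57 regions the signal summed to 115.0 RPM before induction and 102.6 at 8 h. A fall from 8 h to day 4 therefore starts from about this level. At day 2 the sums were 111.4, 40.7, 54.2 and 22.8 RPM, and at day 4 they were 100.7, 15.9, 36.2 and 11.7. SOX17 rose at 11 of 57 regions from before induction to day 4 (44.5% of all regions), 7 of them at Nanog. From 8 h to day 4 it rose at 12 (44.5%). The counts turned with the scaling, since with library totals SOX17 was higher at day 4 than at 8 h by a median of 1.03 on the log2 scale over all regions. By edgeR with TMM, 6 regions were higher (26.7% of all regions) and 26 lower (27.3%), and with library totals 17 were higher and 15 lower. Nanog +65.5 kb had 2.62 and 2.02 RPM of SOX17 at 8 h and 21.2 and 18.3 at day 4, and was called higher under TMM (1.97, SE 0.31, adjusted p = 4.23e-09). Pou5f1 -20.1 kb had 1.64 and 2.74 RPM at 8 h, 14.2 and 10.0 at day 2 and 13.5 and 10.6 at day 4. Esrrb +109.9 kb went the other way, with 4.34 and 6.91 RPM at 8 h, then 9.92 and 6.09 at day 2 and finally 1.06 and 0.84 at day 4. Before induction it stood at 5.94 RPM, above that of most regions (rank 198 of 42403), and the libraries at 8 h lay around that level.

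Oct4 knock-down was started together with Dox, and GATA6 and SOX17 were measured at day 2, to ask whether their binding depends on OCT4. OCT4 itself was not profiled in these cells. Values with control siRNA were not equal to those of untransfected cells at day 2. GATA6 over all regions was higher by a median of 0.46 on the log2 scale, and by 0.17 at the 57 regions. By the study's methods, the knock-down libraries were sequenced paired-end and the other ChIP-seq libraries single-end, so sequencing differed as well. Changes are therefore given against control siRNA only, and regions count as fallen or risen past 0.5 on the log2 scale, the size threshold of the study.

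GATA6 fell upon Oct4 knock-down at 20 of 57 regions (21.2% of all regions) and rose at 1 (21.9%). The falls were 7 of 11 regions at Sox2, 6 of 13 at Esrrb, 4 of 11 at Pou5f1 and 3 of 22 at Nanog, and the medians were -0.70, -0.30, -0.16 and -0.02, against -0.00 for all regions. In edgeR's test, 13 regions were lower (12.6% of all regions) and 1 higher (14.7%), at an adjusted p under 0.05. With library totals in place of TMM 7 regions were lower. The calls at Sox2 -4.0 kb, Sox2 +110.9 kb, Esrrb +34.3 kb, Esrrb +42.1 kb, Esrrb +43.0 kb and Esrrb +109.9 kb, 6 in all, were kept in every one of 9 settings of the test, including those that left out a library.

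**Figure D4:**
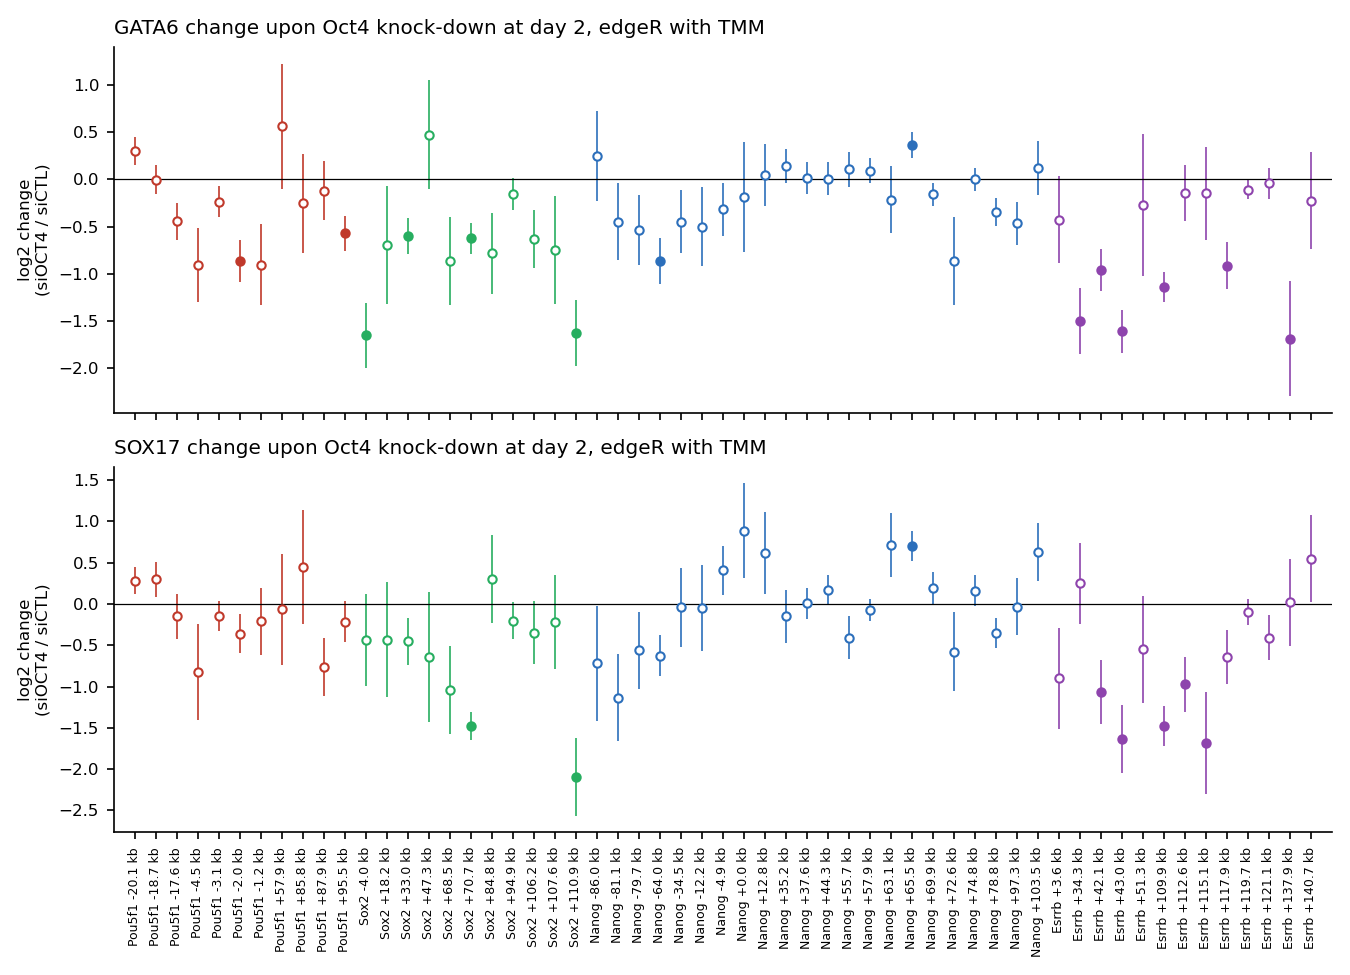
GATA6 (top) and SOX17 (bottom) log2 change upon Oct4 knock-down at day 2 (siOCT4 over siCTL) at all 57 regions, ordered along each locus and colored by locus, from edgeR with TMM normalization. Bars are 1 SE and filled points have an adjusted p under 0.05, 13 lower and 1 higher for GATA6 and 7 lower and 1 higher for SOX17.

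At Sox2 GATA6 was called lower at 4 regions, among them those at -4.0 and +110.9 kb. Sox2 -4.0 kb had 2.60 and 3.59 RPM with control siRNA and 0.87 and 1.09 with Oct4 siRNA, and Sox2 +110.9 kb had 2.60 and 3.28 against 0.87 and 0.99. No library of one group overlapped the other, and the changes were -1.65 (SE 0.34, adjusted p = 2.78e-05) and -1.63 (SE 0.35, adjusted p = 4.85e-05; edgeR, Benjamini-Hochberg). Sox2 +94.9 kb, the second strongest region of the locus at 8 h, had 8.06 and 10.1 RPM against 7.80 and 8.06 and was not called. Sox2 +70.7 kb, one of the regions to which OCT4 came after induction, had 9.41 and 14.2 RPM against 7.40 and 7.16 (-0.62, SE 0.16, adjusted p = 1.07e-03), a call that was lost without the second control library (adjusted p = 0.121) and with library totals (adjusted p = 0.182).

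At Esrrb GATA6 was lower at 6 regions and not called at the strongest one. Esrrb +109.9 kb had 12.4 and 17.3 RPM with control siRNA and 5.66 and 8.26 with Oct4 siRNA, a change of -1.14 (SE 0.16, adjusted p = 1.08e-10, edgeR, Benjamini-Hochberg). Esrrb +43.0 kb had 6.84 and 8.12 RPM against 2.10 and 2.98 (-1.61, SE 0.23, adjusted p = 1.27e-10). Both groups were separate at each of them. Esrrb +119.7 kb had the highest GATA6 of the 57 regions in these cells, 35.4 and 42.4 RPM against 33.8 and 38.2, and the groups overlapped (-0.11, SE 0.10, adjusted p = 0.469). Esrrb +137.9 kb was also called (-1.69, SE 0.61, adjusted p = 2.41e-02), but its level was low, at 0.96 and 0.39 RPM against 0.18 and 0.30, and the call was lost without the first control library (adjusted p = 0.608) or the first Oct4 siRNA library (0.315).

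At Pou5f1 and Nanog fewer regions were called. Pou5f1 -2.0 kb had 5.11 and 6.78 RPM with control siRNA and 2.90 and 3.68 with Oct4 siRNA, without overlap (-0.86, SE 0.22, adjusted p = 1.03e-03, edgeR, Benjamini-Hochberg; with library totals adjusted p = 0.0768). The other of 2 regions called lower at this locus was Pou5f1 +95.5 kb, at 8.42 RPM against 5.83 in pooled values. It passed in 4 of 9 settings. Pou5f1 -1.2 kb had the largest pooled change of the locus (-0.89, 1.42 RPM against 0.68) but was called in 0 of 9 settings. Pou5f1 -20.1 kb went from 9.16 and 12.8 to 11.2 and 16.6 RPM, with overlapping groups. At Nanog 1 region was lower, Nanog -64.0 kb (3.53 and 6.26 RPM against 2.58 and 2.39, -0.86, SE 0.25, adjusted p = 3.08e-03). That call was lost without the second control library (adjusted p = 0.218), with library totals (0.0858) and with DESeq2 (0.0609). The only region called higher was Nanog +65.5 kb, with 10.8 and 14.4 RPM against 12.6 and 21.6, where the groups overlapped (0.37, SE 0.14, adjusted p = 3.25e-02, and up to 0.589 over the settings). The promoter, Nanog +0.0 kb, was at 0.35 and 0.48 RPM against 0.29 and 0.50, and a difference was not detectable at this depth.

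For SOX17 the values of the whole table were shifted between control and Oct4 siRNA, so that the count depended on the scaling. The cause of this shift was not tested. In RPM, SOX17 was higher with Oct4 siRNA by a median of 0.52 on the log2 scale over all regions, and it fell at 5 of 57 regions (3.95% of all regions) and rose at 20 (51.4%). At each region named below, the second Oct4 siRNA library was higher than the first. Under TMM, edgeR called 7 regions lower (6.86% of all regions) and 1 higher (8.02%), and with library totals it called 0 of 42403 regions, with 6694 at an unadjusted p under 0.05, 4 of them among the 57. DESeq2 called 4 lower and 1 higher. Under TMM, Sox2 +70.7 kb had the smallest adjusted p of the 57 regions, with 10.5 and 15.7 RPM with control siRNA and 4.05 and 11.7 with Oct4 siRNA (-1.48, SE 0.17, adjusted p = 1.65e-15, Benjamini-Hochberg). In RPM its groups overlapped. Esrrb +109.9 kb had 4.90 and 6.19 RPM against 2.17 and 4.08 (-1.48, SE 0.24, adjusted p = 5.81e-08), without overlap. Sox2 +110.9 kb had 0.88 and 2.01 RPM against 0.33 and 0.73 (-2.09, SE 0.47, adjusted p = 2.31e-04). At Nanog +65.5 kb SOX17 went from 4.86 and 6.19 to 11.3 and 15.6 RPM (0.70 under TMM, SE 0.18, adjusted p = 1.43e-03). Of the regions called under TMM, Esrrb +109.9 kb and Sox2 +70.7 kb passed in all 8 settings other than library totals. Sox2 +110.9 kb was also lost without the second control library (adjusted p = 0.166), and Nanog +65.5 kb passed in 5 of 9 settings (adjusted p up to 0.296).

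The regions were also grouped by the motif at the summit, a grouping made after the values were seen. Only the best match of each motif in a region was placed, so weaker matches near the summit were not considered. The best OCT:SOX match, but not the best GATA6 match, lay within 50 bases of the summit at 10 regions. GATA6 fell from 8 h to day 4 at 9 of them, with a median of -2.34. Among all regions, 4653 had this arrangement, and GATA6 fell at 56.3% of them (median -1.36). The best GATA6 match alone lay that near at 17 regions. GATA6 fell at 9 of them (median -1.20), against 32% of 15578 regions in the whole table (median 0.04). Pou5f1 -2.0 kb and 1 other region had both best matches that near. At the remaining 28 regions neither best match lay within 50 bases, and GATA6 fell at 13 of them. Among these is Sox2 -4.0 kb, whose best OCT:SOX match lies 56 bases from the summit. Upon Oct4 knock-down, GATA6 fell at 4 of the 10 regions with OCT:SOX and at 8 of the 17 with GATA6, against 29.6% and 19.1% of all regions in these groups. The exception to the loss among OCT:SOX regions was Nanog +55.7 kb, with 4.74 RPM at 8 h and 5.67 at day 4.

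The classes of the authors, which were made from these same profiles, gave a similar picture as a description. Of 31 regions bound by a PTF before induction, GATA6 fell from 8 h to day 4 at 23 and rose at 0, against 70.9% that fell among all regions of that class. Of 11 regions with ectopic PTF binding, where a PTF appears only after induction, it fell at 1 and rose at 5, against 14.2% and 45.1%. The falls in both classes, and the rises with ectopic binding, were thus near the shares of the class over all regions. The 5 that rose were Nanog -64.0 kb, Nanog +65.5 kb, Nanog +74.8 kb, Nanog +103.5 kb and Sox2 +70.7 kb. Of the 18 regions accessible in undifferentiated ES cells, GATA6 fell at 16 (88.9%), against 47.9% of all accessible regions.

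**Figure D5:**
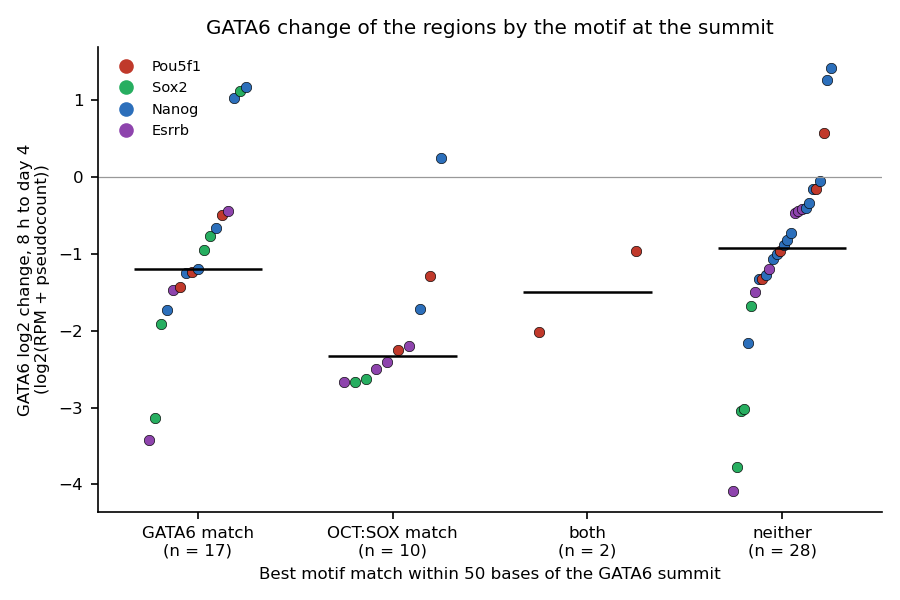
GATA6 log2 change from 8 h to day 4 (log2(RPM + pseudocount)) of the 57 regions, split by the authors' best motif match within 50 bases of the summit and colored by locus. Each point is a region and the bar is the median, -1.20 with a GATA6 match and -2.34 with an OCT:SOX match.

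Regions nearest to other genes gave a frame for these values. Of 158 regions nearest to other pluripotency regulators, such as Klf4 and Tfcp2l1, GATA6 rose by 8 h at 70.9%, fell from 8 h to day 4 at 43% and rose at 24.1%. Of 218 regions nearest to PrE genes, such as Gata4 and Pdgfra, it rose by 8 h at 56.9%, fell from 8 h to day 4 at 10.6% and rose at 57.8%. For the 57 regions the last 2 shares were 32 and 5 of 57. OCT4 fell from before induction to day 4 at 25.3% of the regions of other pluripotency regulators and at 3.67% of those of PrE genes. SOX17 rose by day 4 at 42.4% and 83%. Upon Oct4 knock-down GATA6 fell at 19% of the former and 10.6% of the latter, and rose at 12.7% and 22.5%. These are shares of regions without a test, and the 57 regions were not compared with the lists beyond them.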

How the data were processed

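The authors trimmed reads with cutadapt, aligned them with Bowtie2 (mm10), filtered on mapping quality, collapsed duplicates using molecular identifiers (UMIs), called peaks with MACS2 and counted reads on each GATA6 region. The deposited table of 42403 regions gives RPM (reads scaled to library size), pooled by condition, and the authors' motif match score per region. Of its columns, 45 RPM columns were used, 14 of single samples were not, and one with the authors' own comparison of Oct4 knock-down with control was not used. Input of siRNA-treated cells was not analysed here.

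Pooled values were split into whole reads of single libraries by the size of their steps. Of the recovered values 100% were whole. 3 columns (GATA6 and SOX2 at day 4, input of XEN cells) gave 2 libraries where 3 are labelled, and ESRRB at 8 h and SOX17 at 16 h gave 1 where 2 are labelled. No library held fewer than 1 read in any region. The main values are log2(RPM + pseudocount), the pseudocount being the 5th percentile of the non-zero values of each factor, with no test. As an alternative, edgeR 4.0.16 (quasi-likelihood test, Benjamini-Hochberg adjustment) was run on the recovered reads of all regions, and DESeq2 1.42.0 for the knock-down. The test was checked on simulated data. The GATA core was read at 1629 of 2000 deposited GATA6 matches (81.5%) in the RefSeq genome, and at 1 after a shift of 1 base.

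The members and lists were chosen with earlier results of these data known. Regions given in full were, at each locus, the one nearest the start, the 2 with most GATA6 at 8 h, those with most GATA6 or SOX17 at day 4 or most OCT4 before induction, the one with the largest GATA6 change upon knock-down and, at Sox2, the strongest over 100 kb downstream. Other regions named, the sequences, the motif and class groupings and edgeR between time points, with reads minus 1, with library totals or after filterByExpr were chosen after seeing the data. By the study's methods, libraries of a condition mostly came from separate chromatin preparations, with a single one for GATA6 before induction and for OCT4 in XEN cells.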

Additional observations from a re-analysis of the deposited data

How the results depend on the processing

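No paired analysis was possible because the columns carry no replicate numbers. No locus median past its threshold changed sign under an alternative, but 13 of 356 alternatives turned the sign of one under it. Relative to the median of all regions, SOX17 turned from 0.53 to -0.25 at Nanog and from 0.04 to -0.75 at Pou5f1 from before induction to day 4, from 0.72 to -0.07 at Nanog from 8 h, and upon knock-down from 0.45 to -0.07 at Pou5f1 and from 0.19 to -0.33 at Sox2. A 10 times larger pseudocount gave counts of 20 (ESRRB fell from 16 h to day 4), 18 (ESRRB fell from before induction), 17 and 2 (GATA6 fell and rose from 8 h to day 4), 14 and 12 (OCT4 fell from 8 h and from before induction), 7 and 7 (SOX17 rose from 8 h and from before induction), and for the knock-down 11 and 0 (GATA6 fell and rose) and 2 and 12 (SOX17 fell and rose). Changes relative to the median of all regions gave 24 for ESRRB from before induction, 24 for GATA6 to 8 h, 5 and 4 for SOX17 from 8 h and from before induction, and 14 fallen and 6 risen for SOX17 upon knock-down. Subtracting input gave 19 and 18 for SOX17. With regions of at least 1 RPM, GATA6 rose upon knock-down at 0. Among the 34 regions nearest to the gene of their locus, GATA6 rose at 31 by 8 h and at 1 after it, at 0 upon knock-down, SOX17 rose at 2 and 2 over time and at 8 upon knock-down, and SOX2 fell at 19 from 8 h to day 4. On recovered reads, edgeR with TMM, Benjamini-Hochberg adjusted, gave 20 for ESRRB from 16 h, 13 for GATA6 fallen upon knock-down, and 6 and 1 for SOX17 risen over time and upon knock-down. With reads minus 1 these were 16, 13, 5 and 1. With library totals, GATA6 fell at 7 and rose at 0 and SOX17 at 0 and 0 upon knock-down. After filterByExpr GATA6 fell at 12 and SOX17 rose at 1, and with DESeq2 GATA6 fell at 8 and rose at 0 and SOX17 rose at 1. DESeq2 gave no adjusted p for 8221 and 19730 regions in the GATA6 and SOX17 comparisons. The cause of these moves was not tested.

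Leaving out 1 library at a time, in either the pooled or the edgeR counts, gave 49 to 51 for GATA6 by 8 h, 28 to 43 fallen and 4 to 7 risen from 8 h to day 4, 8 to 29 fallen and 0 to 5 risen upon knock-down, 2 to 13 and 0 to 38 for SOX17 upon knock-down, 4 to 16 and 12 to 12 for SOX17 risen from 8 h and from before induction, 21 to 31 and 20 to 24 for OCT4, 27 to 39 and 27 to 28 for SOX2, and 10 to 40 and 39 to 40 for ESRRB from 16 h and from before induction. For OCT4 risen by 8 h it was 0 to 0. Of 150 other alternatives of 16 counts, 105 were within 1.5 times the reported count. A lone library left in a condition was assumed to vary like the others.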

Other observations

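Esrrb +109.9 kb stood apart in several conditions. Before induction it had 6.70 RPM of GATA6, rank 4 of 42403 regions, in a single library. In XEN cells OCT4, also a single library, was at 13.3 RPM there, rank 4, while GATA6 was at 0.80, and SOX2 was at 7.16 and 4.97 RPM in the libraries, rank 133 in the pooled value.

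Of the 21 regions listed as Early&Constant by the authors, 5 had over 2-fold less GATA6 at day 4 than at 8 h, with log2 changes of -3.77 at Sox2 -4.0 kb, -2.2 at Esrrb +117.9 kb, -1.74 at Nanog +69.9 kb, -1.68 at Sox2 +94.9 kb and -1.2 at Nanog +35.2 kb.

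Values with control siRNA differed from those of untransfected cells at day 2 for SOX17 as well. Over all regions the median log2 difference, control siRNA minus untransfected, was -0.17, and at the 57 regions it was -0.52, with 9 regions at least 2-fold lower and 0 higher. For GATA6, 4 of the 57 regions were at least 2-fold higher and 3 lower. Transfection, paired-end against single-end sequencing and other differences between these cultures cannot be told apart.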
